A study of Mus musculus with 18 samples.

Results

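The genes described here are those encoded by the mitochondrial genome, chosen as every gene that the deposited count table places on chromosome MT. There are 37 of them among the 55414 genes of the table: 13 protein-coding genes, 2 ribosomal RNA (rRNA) genes and 22 transfer RNA (tRNA) genes. All libraries come from C2C12, an established mouse myoblast line that fuses into myotubes. In each of the 6 groups, confluent myoblasts were transfected with a pool of siRNAs, differentiated for 6 days and then kept for 16 h in medium without serum. The pool was non-targeting (siNtc), directed at Erk3 (gene symbol Mapk6; siErk3) or directed at Mk5 (gene symbol Mapkapk5; siMk5), and the last incubation held either 0.5 mM palmitic acid bound to albumin (PA) or the albumin vehicle alone (BSA). Silencing by siRNA is transient and partial, so none of the groups lacks either kinase. Each group has 3 libraries, made from poly(A)-selected RNA with a strand-specific kit. The labels do not say whether the 3 came from separate cultures, so the tests measure the spread between these libraries, which may be technical.

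The mitochondrial genome is transcribed from both strands into long precursors, and the tRNAs that lie between the other genes are cut out to release the individual RNAs. The protein-coding genes all encode subunits of the respiratory chain and of ATP synthase, and the rRNAs form the mitochondrial ribosome that translates them. Skeletal muscle relies on this system for oxidative ATP production, and the many other subunits and the whole transcription and RNA-processing machinery are encoded in the nucleus.

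Libraries held 13041979 to 28496727 counts, and the 37 genes took between 1.61% and 2.26% of them. Nuclear 18S rRNA (Rn18s-rs5) took from 1.497% to 12.9% of the counts, with 1.497% to 2.96% in siErk3 BSA and 8.39% to 12.9% in siMk5 BSA. Erk3 (Mapk6) mRNA was 132 ± 3.18 CPM (the read count scaled to a common library size with TMM factors; SD, n = 3) in siNtc BSA and 57.4 ± 2.64 in siErk3 BSA, and 232 ± 14.7 against 120 ± 11.4 in PA. Mk5 (Mapkapk5) mRNA was scarce, and it was lower in every siMk5 library than in every siNtc library of the same medium, at 1.18 to 2.01 against 2.32 to 2.54 CPM in BSA and 2.17 to 2.43 against 2.52 to 3.92 CPM in PA. That decrease did not pass the test across all genes (edgeR, adjusted p = 0.469 in both media). The myotube markers Acta1, Myh3 and Des were abundant in siNtc BSA, at 3190 ± 309, 2431 ± 83.1 and 2012 ± 98.6 CPM (n = 3). The markers Myog, Mymk and Ckm were lower there, at 491 ± 6.76, 402 ± 17.3 and 212 ± 10.7 CPM. The proliferation gene Mki67 was at 408 ± 6.34 CPM. In bulk RNA, fewer cells of a type and less RNA per cell cannot be told apart.

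A stretch of chromosome 1 (GRCm39, 1:24650616-24655269, minus strand) is a copy of mitochondrial positions 6390 to 11042, which is 28.5% of the 16299-base mitochondrial genome. The copy is 99.936% identical over 4653 mitochondrial bases and differs at 3 places, shown here because read pairs between them fit both chromosomes equally well. The sequences are given on the strand of the mitochondrial reference, and the capital marks the base that differs.
mitochondrial 6390 to 6413, in mt-Co1: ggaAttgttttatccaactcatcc
chromosome 1 copy, 24655246 to 24655269: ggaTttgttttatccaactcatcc
mitochondrial 9441 to 9481, in mt-Nd3: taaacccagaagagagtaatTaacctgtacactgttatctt
chromosome 1 copy, 24652178 to 24652218: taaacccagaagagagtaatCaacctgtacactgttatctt
mitochondrial 9809 to 9848, in mt-Tr: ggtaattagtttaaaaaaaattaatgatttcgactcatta
chromosome 1 copy, 24651810 to 24651850: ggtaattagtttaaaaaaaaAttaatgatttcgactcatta
Counted along the mitochondrial reference, with its base first, the substitutions are A6393T and T9461C, and the third difference is a single base present only in the copy after position 9828.

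Of the 37 members, 11 lie wholly inside this window, 6 of them protein-coding (mt-Co2, mt-Atp8, mt-Atp6, mt-Co3, mt-Nd3 and mt-Nd4l) and 5 of them tRNA genes. mt-Co1 has 31.3% and mt-Nd4 has 63.6% of its bases inside, and the other 24 members lie outside. The counts followed the window. mt-Co2 had 204 to 405 counts per library, whereas its neighbour mt-Co1 had 103914 to 191445. The 6 protein-coding genes wholly inside make up 26.3% of the protein-coding bases and held 0.218% of the protein-coding counts. Their annotated copies on chromosome 1 were counted at similar low levels: Gm28661, the copy of mt-Co2, had 208 to 378 counts per library, and Gm28437, the copy of mt-Co3, had 172 to 411 beside 170 to 353 for mt-Co3 itself. Adding the copies raised the sum for the 6 genes over all libraries only from 14631 to 32097 counts. Reads were aligned with STAR at default settings, and pairs were counted at their primary alignment if its mapping quality reached 3. How a pair that fits both places was then assigned is not stated, and the cause of the low counts was not tested, so the values of these genes are no measure of their RNA relative to other genes.

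**Figure D1:**
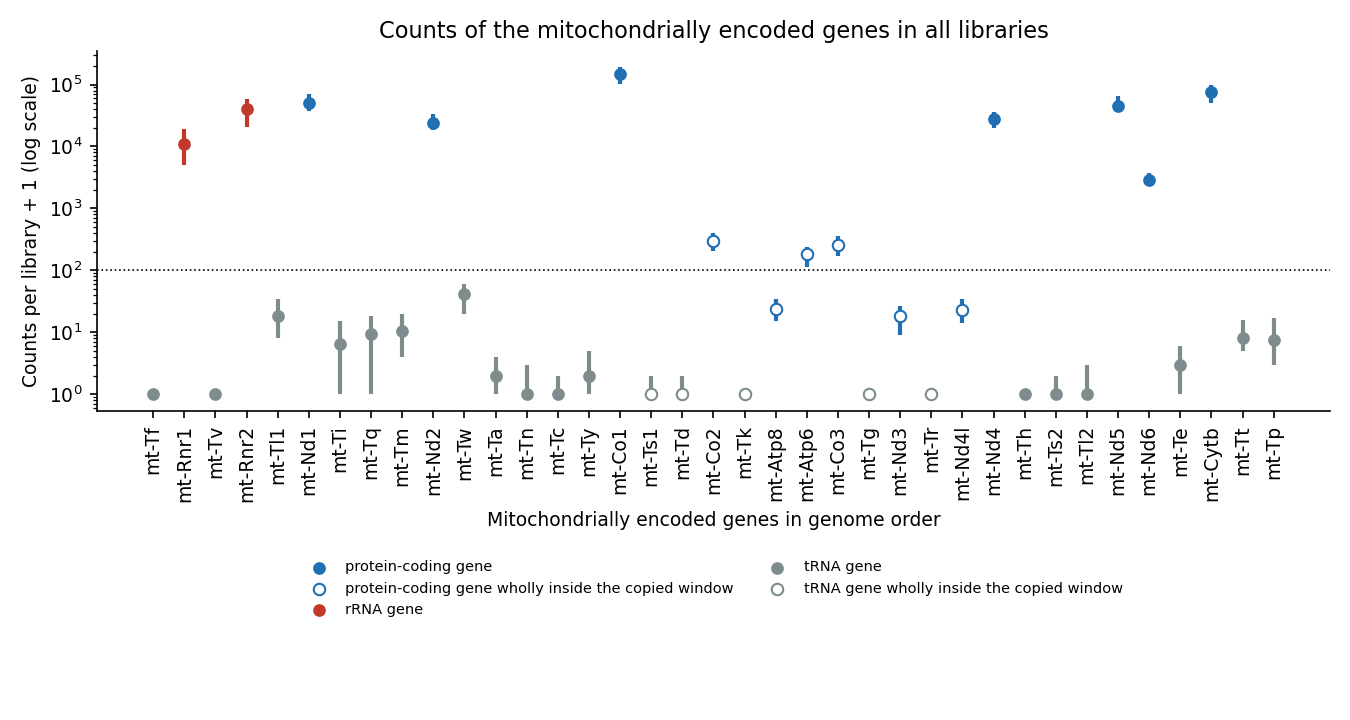
Counts per library plus 1 (log axis) for the 37 mitochondrially encoded genes in genome order; points are medians over 18 libraries, lines run from the lowest to the highest library, and the dotted line marks 100 counts. Open symbols, the genes wholly inside the window copied on chromosome 1, lie at or under 405 counts, while the protein-coding genes outside it lie at 2309 counts or more.

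In all, 12 members had at least 100 counts in each of the 18 libraries and are called well counted: both rRNA genes and 10 protein-coding genes, of which mt-Co2, mt-Atp6 and mt-Co3 lie wholly inside the window. A further 13 had at least 10 counts in total: mt-Atp8, mt-Nd3, mt-Nd4l and 10 tRNA genes, which were low. The remaining 12, all tRNA genes, had fewer and were not tested. Of these, 6 had no count in any library, which allows up to 3 counts over all libraries together, and 6 had 1 to 9 counts. All 22 tRNA genes together held 37 to 150 counts per library. Mature tRNAs carry no poly(A) tail and are shorter than the reads, and how far these counts come from mature tRNA or from precursors was not tested.

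Levels between genes were compared as CPM per kilobase of the bases that neither the window nor a neighbouring gene shares. The counts divided were those of the whole gene, window included. Pairs counted inside the window therefore raise the values of mt-Co1 and mt-Nd4, which have 1062 of 1545 and 502 of 1378 bases left. How many pairs these were was not tested, so mt-Nd4 is not placed against mt-Nd1, mt-Nd5 or mt-Nd2. In siNtc BSA, mt-Co1, the catalytic core of complex IV, led with 6275 ± 519 (SD, n = 3). mt-Cytb, the cytochrome b of complex III, followed with 2929 ± 127, and the complex I subunit mt-Nd1 was at 2542 ± 167. mt-Nd5 and mt-Nd2, also of complex I, were lower than mt-Nd1, at 1252 ± 136 and 1090 ± 140. The value of mt-Nd4, another complex I subunit, was 2530 ± 224 and is raised by pairs inside the window to an unknown extent. mt-Nd6, a complex I subunit and the only protein-coding gene on the minus strand, was lowest at 304 ± 74.0. The rRNAs stood at 915 ± 18.6 for mt-Rnr2 and 370 ± 11.4 for mt-Rnr1, but poly(A) selection captures rRNA to an unknown extent, so these 2 values do not rank the rRNAs against the mRNAs. How far the selection caught each mRNA, mt-Nd6 included, was not tested either, so the order is that of captured RNA. The libraries of mt-Nd5 and mt-Nd2 overlapped, as did those of mt-Rnr1 and mt-Nd6. In all 6 groups mt-Co1 ranked first, mt-Cytb second and mt-Nd6 last.

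Palmitic acid raised both mitochondrial rRNAs in all 3 siRNA backgrounds, while no well counted mitochondrial mRNA was called beyond 1.3-fold by edgeR over all libraries, with mt-Nd6 depending on the setting. mt-Rnr1 (12S rRNA, small ribosomal subunit; MT 70 to 1024, plus strand) had 359, 341 and 361 CPM in the siNtc BSA libraries and 657, 681 and 829 CPM in siNtc PA. In siErk3 it had 322, 305 and 302 CPM in BSA and 842, 686 and 601 CPM in PA. In siMk5 it had 432, 434 and 335 CPM in BSA and 745, 722 and 695 CPM in PA. Every PA library was above every BSA library, whichever siRNA was used. The log2 fold change was 1.03 ± 0.09 (SE) in siNtc (edgeR, adjusted p = 3.57e-11), 1.20 ± 0.09 in siErk3 (edgeR, adjusted p = 1.08e-12) and 0.85 ± 0.09 in siMk5 (edgeR, adjusted p = 1.97e-09).

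mt-Rnr2 (16S rRNA, large ribosomal subunit; MT 1094 to 2675, plus strand) rose less. Its libraries had 1467, 1414 and 1463 CPM in siNtc BSA and 2177, 2157 and 2363 CPM in siNtc PA. In siErk3 it had 1310, 1435 and 1319 CPM in BSA and 2480, 2101 and 1863 CPM in PA. In siMk5 it had 1860, 1609 and 1510 CPM in BSA and 2149, 2614 and 2350 CPM in PA. Within each background the BSA and PA libraries did not overlap, and the siErk3 PA libraries spread most. The log2 fold change was 0.62 ± 0.08 in siNtc (edgeR, adjusted p = 3.48e-08), 0.67 ± 0.08 in siErk3 (edgeR, adjusted p = 8.95e-09) and 0.51 ± 0.08 in siMk5 (edgeR, adjusted p = 1.11e-06). For 100 counts of mt-Rnr2 there were 21.3 to 26.95 counts of mt-Rnr1 in the BSA libraries and 27.6 to 35.1 in the PA libraries. For single values an exact permutation test of 3 against 3 libraries cannot go below 0.1, which all 6 of these rRNA comparisons reached.

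**Figure D2:**
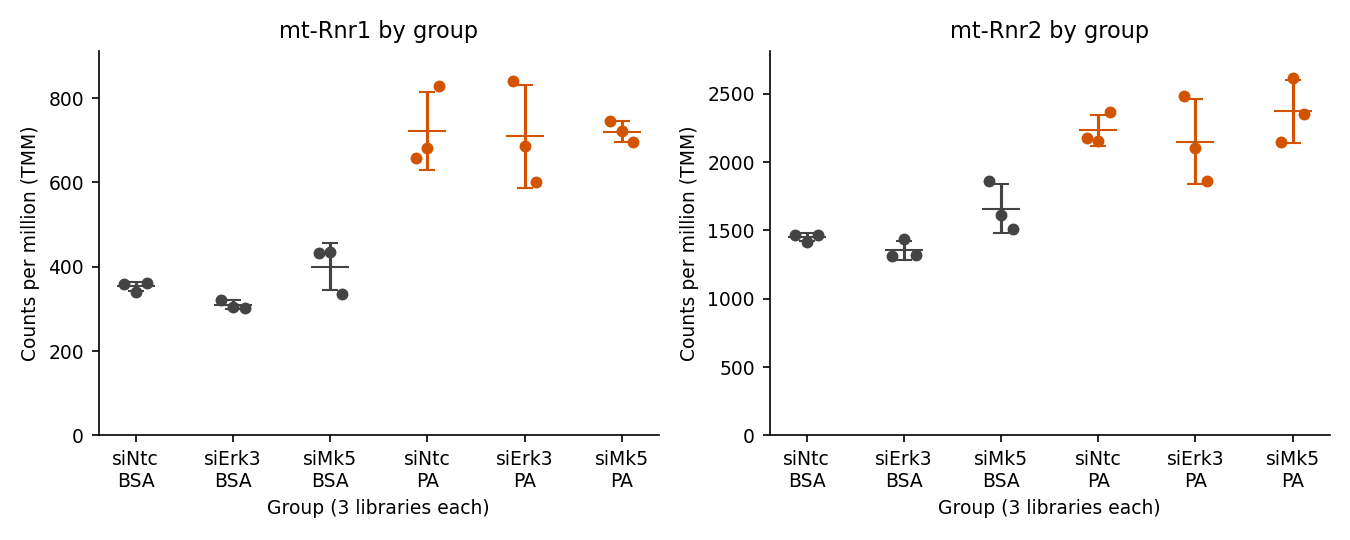
CPM of mt-Rnr1 (left) and mt-Rnr2 (right) in each library, by group; points are libraries, horizontal bars are means and error bars are SD (n = 3). For mt-Rnr1 all 9 PA libraries lie above all 9 BSA libraries, and for mt-Rnr2 they do so within each siRNA.

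Nuclear 18S rRNA moved in different directions with PA. It took 2.56% to 7.17% of the counts in siNtc BSA and 5.32% to 6.43% in siNtc PA, which overlap. Its share was higher in every siErk3 PA library (3.74% to 6.77%) than in siErk3 BSA (1.497% to 2.96%) and lower in every siMk5 PA library (1.71% to 6.69%) than in siMk5 BSA (8.39% to 12.9%). With the 18S share as a covariate, the log2 fold change of mt-Rnr1 was 1.03, 1.20 and 0.85 in siNtc, siErk3 and siMk5, and that of mt-Rnr2 was 0.64, 0.74 and 0.36. The value of 0.36 for mt-Rnr2 in siMk5 is under the 1.3-fold limit (edgeR, adjusted p = 0.0198). In siErk3 and in siMk5 the shares of the 2 media did not overlap. There the covariate cannot separate the share from PA, which holds for each use of it below. Whether PA changed the amount of rRNA or the share of it caught by poly(A) selection was not tested.

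Counted over the 25 tested members, 5 were changed by PA in siNtc, 3 in siErk3 and 3 in siMk5, where changed means an adjusted p below 0.05 over all genes and more than 1.3-fold. All of them rose. Of the 21772 genes tested, 30.6%, 32.1% and 29.7% were changed in the same comparisons, so the shares of members are not above the background. On the adjusted p alone the members were 7, 6 and 7, beside 45.1%, 47.1% and 44.3% of all genes. The 3 comparisons use separate libraries.

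Among the 10 well counted protein-coding genes the edgeR fit over all libraries called none with PA, although other settings called mt-Nd6 as given below. In the DESeq2 fit the count was also 0, and the number at an unadjusted edgeR p below 0.05 was 3 in siNtc, 4 in siErk3 and 5 in siMk5. In siNtc and siErk3 the largest decreases were those of mt-Nd5 and mt-Nd6, which overlap at their 3′ ends on opposite strands (MT 11742 to 13565, plus strand, and 13552 to 14070, minus strand). mt-Nd5 had 2566, 2096 and 2191 CPM in siNtc BSA and 2132, 1910 and 1897 in siNtc PA. It had 2190, 2249 and 2325 CPM in siErk3 BSA and 1864, 1878 and 1943 in siErk3 PA. The siErk3 libraries of the 2 media did not overlap, while in siNtc 1 PA library lay inside the BSA range.

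On the log2 scale mt-Nd5 fell by 0.21 ± 0.06 in siNtc (edgeR, adjusted p = 0.00589), by 0.25 ± 0.06 in siErk3 (edgeR, adjusted p = 0.000917) and by 0.15 ± 0.06 in siMk5 (edgeR, adjusted p = 0.0478). mt-Nd6 fell by 0.32 ± 0.10 in siNtc (edgeR, adjusted p = 0.00697) and by 0.25 ± 0.10 in siErk3 (edgeR, adjusted p = 0.0362), and its log2 fold change was -0.14 ± 0.10 in siMk5 (edgeR, adjusted p = 0.264). In siNtc the mt-Nd6 value leaned on library 1 of BSA, which had 202 CPM beside 131 and 141. Without that library the log2 fold change was -0.13 (edgeR, adjusted p = 0.147). It passed 1.3-fold without BSA library 2 (-0.46), BSA library 3 (-0.42) or PA library 1 (-0.43), with edgeR adjusted p of 0.0002595, 0.00141 and 0.0008484. In siErk3, DESeq2 gave an adjusted p of 0.162 for mt-Nd6, and with the 18S share as a covariate it was 0.489 for mt-Nd6 and 0.0542 for mt-Nd5 (edgeR; log2 fold changes of -0.10 and -0.16). In siMk5 the same covariate moved the other way, to a call of mt-Nd6 at -0.42 (edgeR, adjusted p = 0.0232) and to -0.32 for mt-Nd5, still under 1.3-fold. mt-Nd5 in siMk5 missed the adjusted p without any of 3 libraries, with values up to 0.243, and in siNtc it was -0.14 without BSA library 1 (edgeR, adjusted p = 0.0527). Whether PA changed the amount of mt-Nd6 mRNA or the share of it caught by poly(A) selection was not tested.

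mt-Nd1 fell by 0.12 ± 0.05 in siErk3 (edgeR, adjusted p = 0.0427), which did not pass without BSA library 3 (-0.10, edgeR, adjusted p = 0.157). With the 18S covariate, which cannot be separated from PA in siErk3, it was -0.08 (edgeR, adjusted p = 0.268). In siMk5 3 mRNAs passed the adjusted p with folds under 1.3: mt-Co1 rose by 0.23 ± 0.05 (edgeR, adjusted p = 0.000227), mt-Nd4 by 0.18 ± 0.06 (edgeR, adjusted p = 0.00783) and mt-Cytb by 0.17 ± 0.04 (edgeR, adjusted p = 0.00198). With the 18S share as a covariate the log2 fold changes were 0.08, 0.04 and 0.08 and none passed (edgeR, adjusted p = 0.424, 0.772 and 0.449). Every siMk5 BSA library had a higher 18S share than every siMk5 PA library. The covariate therefore cannot separate the share from PA, and whether these 3 rises hold apart from it was not tested. With the mitochondrial mRNA total as the library size, the median over all genes moved from -0.01 to -0.13 in siMk5. The mitochondrial mRNA total was thus higher in PA against the median gene there, a difference that was not tested. The summed CPM of the protein-coding members was 16130 ± 941 in siMk5 BSA and 17600 ± 526 in siMk5 PA. It was 17320 ± 1390 in siNtc BSA and 17260 ± 566 in siNtc PA (SD, n = 3). mt-Nd2, a complex I subunit, had log2 fold changes of -0.02, -0.04 and 0.06 in siNtc, siErk3 and siMk5, with 95% intervals that together ran from -0.17 to 0.19.

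**Figure D3:**
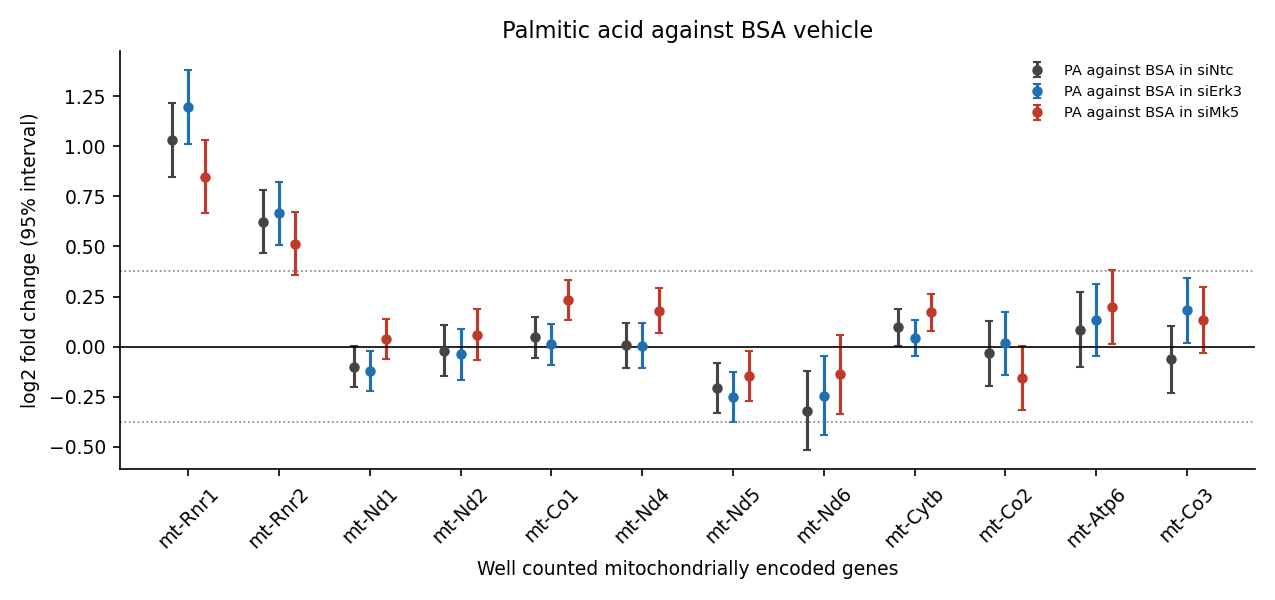
Log2 fold change of PA against BSA with 95% intervals for the 12 well counted members, by siRNA; dotted lines mark 1.3-fold in either direction. mt-Rnr1 (0.85 to 1.20) and mt-Rnr2 (0.51 to 0.67) lie above the upper line in all 3 backgrounds, and every mRNA estimate lies between the lines.

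The 3 well counted genes inside the window gave no call. mt-Co2, a catalytic subunit of complex IV, had log2 fold changes of -0.03, 0.02 and -0.15 with PA in siNtc, siErk3 and siMk5. mt-Atp6, part of the proton channel of ATP synthase, had 0.08, 0.13 and 0.20, and mt-Co3, the third core subunit of complex IV, had -0.06, 0.18 and 0.13. Of mt-Atp8, mt-Nd3 and mt-Nd4l none was called in any comparison, and their counts per library ran from 8 to 34. Summing each gene with its chromosome 1 copy, a choice made after seeing the data, changed no call of a named member, but turned mt-Co3 in siErk3 from 0.18 to -0.08. The copy held 56.2% of the summed mt-Co3 counts in siErk3 BSA and 47.7% in siErk3 PA.

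The tRNA genes that the test called were all low. mt-Tp, the proline tRNA gene, had 2, 6 and 5 counts in siNtc BSA and 13, 12 and 9 in siNtc PA, and 7, 4 and 5 counts in siMk5 BSA and 12, 11 and 16 in siMk5 PA. Its edgeR adjusted p was 0.0200 in siNtc and 0.0132 in siMk5, and DESeq2 gave 0.0629 and 0.0511. The call was lost without any of 3 libraries in siNtc and any of 2 in siMk5, and in siMk5 also with the 18S covariate, at a log2 fold change of 1.33 beside 1.25 without it (edgeR, adjusted p = 0.166). mt-Tq, the glutamine tRNA gene, had 0, 5 and 3 counts in siNtc BSA and 13, 9 and 12 in siNtc PA (edgeR, adjusted p = 0.00402). mt-Ti, the isoleucine tRNA gene, had 1, 3 and 1 counts in siNtc BSA and 9, 6 and 8 in siNtc PA (edgeR, adjusted p = 0.0343), and the call was lost without any of 4 of these 6 libraries. mt-Tl1, a leucine tRNA gene that lies directly after mt-Rnr2, had 17, 20 and 19 counts in siErk3 BSA and 31, 27 and 34 in siErk3 PA (edgeR, adjusted p = 0.0115), a call lost without either of 2 libraries and with the 18S covariate, at a log2 fold change of 0.82 with or without it (edgeR, adjusted p = 0.0552). In each of these comparisons the PA libraries lay above the BSA libraries. These 4 genes had 100 (mt-Ti) to 319 (mt-Tl1) counts over all 18 libraries, well above the filter of 10 in total. Leaving out single libraries lost calls of mt-Tp, mt-Ti and mt-Tl1 but not that of mt-Tq. At such low counts the number of tRNA genes called is no measure of how many changed.

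Silencing of either kinase changed none of the 25 tested members. The edgeR count was 0 for siErk3 against siNtc in BSA (0.785% of all genes changed) and in PA (0.556%), and 0 for siMk5 against siNtc in BSA (0.0643%) and in PA (0.547%). The comparisons in 1 medium share the siNtc libraries. DESeq2 also called 0 members in each, and at an unadjusted edgeR p below 0.05 there were 3, 1, 4 and 1 members in that order. For the 12 well counted members siErk3 in BSA gave log2 fold changes between -0.25 and 0.00, and siErk3 in PA between -0.18 and 0.03. For siMk5 the lowest and highest were -0.17 and 0.20 in BSA. With PA they were -0.04 and 0.13. Of 7 myotube markers, 2 were called in siErk3 against siNtc in BSA: the myosin genes Myh3 and Myh8 rose (log2 fold changes of 0.39 ± 0.05 and 0.57 ± 0.05). The median of the 7 was 0.05, with 5 above and 2 below no change. For siErk3 against siNtc in PA, 1 of the 7 was called and rose, all 7 were above no change and the median was 0.10. For siMk5 against siNtc 0 were called in either medium. The part of these markers in the values above was not tested.

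mt-Nd6 had 202, 131 and 141 CPM in siNtc BSA and 140, 124 and 131 CPM in siErk3 BSA, and these groups overlapped (log2 fold change -0.25 with a 95% interval of -0.45 to -0.06; edgeR, adjusted p = 0.302). Without siNtc BSA library 1 the value was -0.04. mt-Co1 in siMk5 against siNtc in BSA had a log2 fold change of -0.17 with an interval of -0.27 to -0.06 and no overlap between the libraries (edgeR, adjusted p = 0.323). With the 18S covariate it was -0.03, and siMk5 BSA is the group with the highest 18S shares. These shares did not overlap those of siNtc BSA, so the covariate cannot separate them from silencing. For mt-Cytb the intervals of the 4 comparisons together ran from -0.17 to 0.10, and for mt-Nd1 from -0.17 to 0.16. These intervals leave room for differences of that size.

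**Figure D4:**
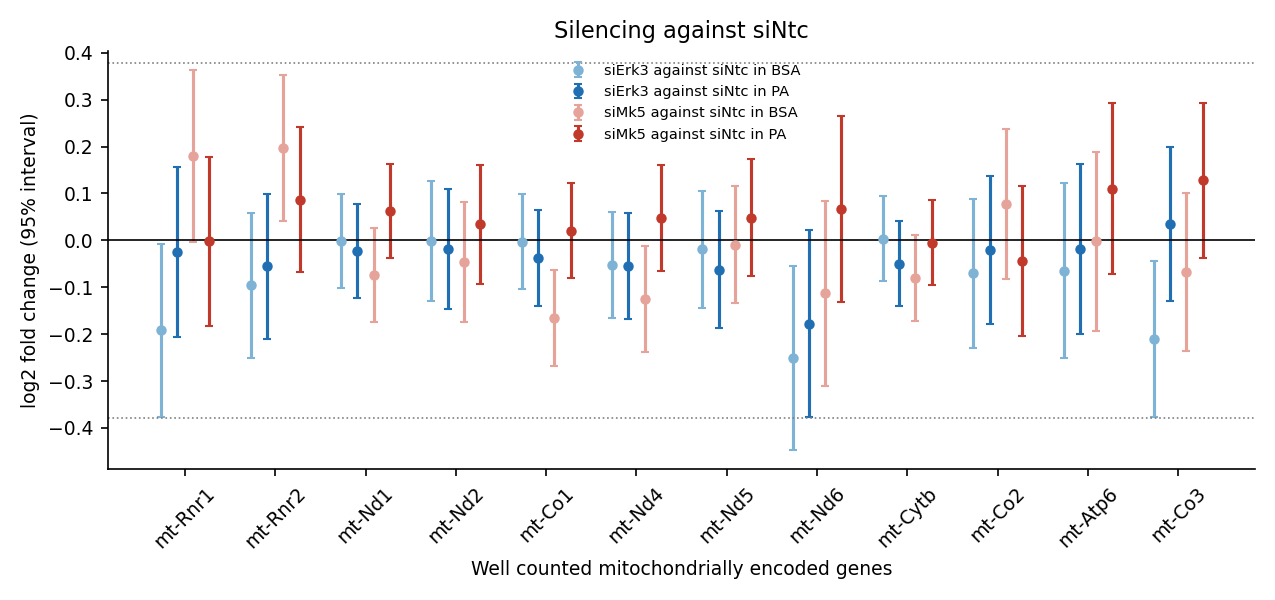
Log2 fold change of siErk3 or siMk5 against siNtc in each medium with 95% intervals for the 12 well counted members; dotted lines mark 1.3-fold in either direction. All estimates lie between the lines, from -0.25 to 0.20.

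Set against each other, siErk3 and siMk5 also gave no changed member, in BSA (0.588% of all genes changed) or in PA (1.03%). DESeq2 called 0 in both media, and 3 members in each had an unadjusted edgeR p below 0.05. In BSA mt-Rnr1 was 309.5 ± 10.6 CPM in siErk3 and 400 ± 56.5 CPM in siMk5, with no overlap between the libraries. The log2 fold change of -0.37 ± 0.09 passed the adjusted p (edgeR, 0.0356) but not 1.3-fold, and DESeq2 gave 0.170. The 18S share was 1.497% to 2.96% in siErk3 BSA and 8.39% to 12.9% in siMk5 BSA. With it as a covariate the log2 fold change was also -0.37 while the adjusted p was 0.632 (edgeR). As these ranges do not overlap, the covariate cannot separate the share from the difference between the siRNAs.

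The test of whether silencing altered the response to PA (the interaction) called 0 members for siErk3 (0.0367% of all genes) and 0 for siMk5 (0.211%) with edgeR. DESeq2 called 0 in both, and 1 and 2 members had an unadjusted edgeR p below 0.05. For mt-Rnr1 the interaction was 0.17 for siErk3 (edgeR, adjusted p = 0.879) and -0.18 for siMk5 (edgeR, adjusted p = 0.767).

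The nuclear genes that serve the mitochondrial genome were described from lists. Of 9 genes of mitochondrial DNA transcription, 2 rose and 3 fell with PA in siNtc, 2 rose and 0 fell in siErk3, and 3 rose and 1 fell in siMk5. Over all genes PA changed 30.6%, 32.1% and 29.7% in these comparisons. Tfam, which packages mitochondrial DNA and activates its promoters, rose by 0.53 ± 0.06, 0.53 ± 0.06 and 0.51 ± 0.06 on the log2 scale in siNtc, siErk3 and siMk5. Mterf3 rose by 0.65 ± 0.08, 0.70 ± 0.08 and 0.65 ± 0.08, and Mterf2 fell by 0.56 ± 0.13 in siNtc and by 0.54 ± 0.14 in siMk5. The list's median log2 fold change was 0.08, 0.14 and 0.22, beside -0.03, -0.01 and -0.01 over all genes.

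Of 23 genes of mitochondrial RNA processing and stability, 10, 9 and 10 rose with PA in siNtc, siErk3 and siMk5 and none fell. Over all 21772 genes 3381, 3440 and 3280 rose and 3280, 3552 and 3181 fell. Their median log2 fold change was 0.30, 0.23 and 0.26. Pnpt1, the mitochondrial polynucleotide phosphorylase, rose by 0.96 ± 0.06, 0.94 ± 0.06 and 0.85 ± 0.06. Lrpprc, which stabilises mitochondrial mRNAs and supports their polyadenylation, rose by 0.68 ± 0.05, 0.66 ± 0.05 and 0.59 ± 0.05. Trmt10c, a subunit of mitochondrial RNase P, rose by 0.81 ± 0.08, 0.97 ± 0.08 and 0.99 ± 0.08, and Tbrg4 by 0.94 ± 0.08, 0.94 ± 0.07 and 0.92 ± 0.07. In the 4 silencing comparisons none of these genes was called.

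Of 9 genes of mitochondrial DNA replication and packaging, 2, 1 and 2 rose with PA, among them Rnaseh1 in all 3 backgrounds (0.39 ± 0.08, 0.46 ± 0.08 and 0.50 ± 0.08). These counts are below the 30.6%, 32.1% and 29.7% of all genes changed by PA. Of 7 nuclear regulators, 1 rose in each background and 1, 0 and 1 fell. Pprc1, a coactivator of the PGC-1 family, rose by 0.89 ± 0.06, 0.81 ± 0.06 and 0.82 ± 0.06, while Ppargc1b of the same family fell by 0.53 ± 0.12 in siNtc and Ppargc1a, at under 1 CPM, fell by 1.04 ± 0.36 in siMk5 (edgeR, adjusted p = 0.0179).

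The nuclear-encoded partners of the mitochondrial subunits moved little. Of 77 tested subunits of complexes I, III, IV and V, PA raised 2, 3 and 2 and lowered 2, 0 and 0 beyond 1.3-fold in siNtc, siErk3 and siMk5, and their median log2 fold change was -0.09, -0.06 and -0.04. The share of all genes changed was 30.6%, 32.1% and 29.7%. On the adjusted p alone 22, 20 and 15 were lower and 6, 7 and 9 higher, beside 45.1%, 47.1% and 44.3% of all genes in either direction. Uqcrq of complex III rose by 0.64 ± 0.07, 0.64 ± 0.06 and 0.61 ± 0.07, and Cox6a2 of complex IV by 0.41 ± 0.09, 0.42 ± 0.08 and 0.56 ± 0.09. In siErk3 against siNtc in BSA 1 of the 77 changed, beside 0.785% of all genes. It was Cox8b of complex IV, which fell by 0.63 ± 0.12 (edgeR, adjusted p = 0.00377). The count was 0 for siErk3 in PA, siMk5 in BSA and siMk5 in PA against siNtc, beside 0.556%, 0.0643% and 0.547% of all genes. Myotube markers also moved with PA: 4, 2 and 2 of 7 fell, and 3 of 4 markers of undifferentiated or cycling myoblasts fell in each background. Of all 21772 genes 3280, 3552 and 3181 fell. The part of these markers in the results for the mitochondrial genes was not tested.

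**Figure D5:**
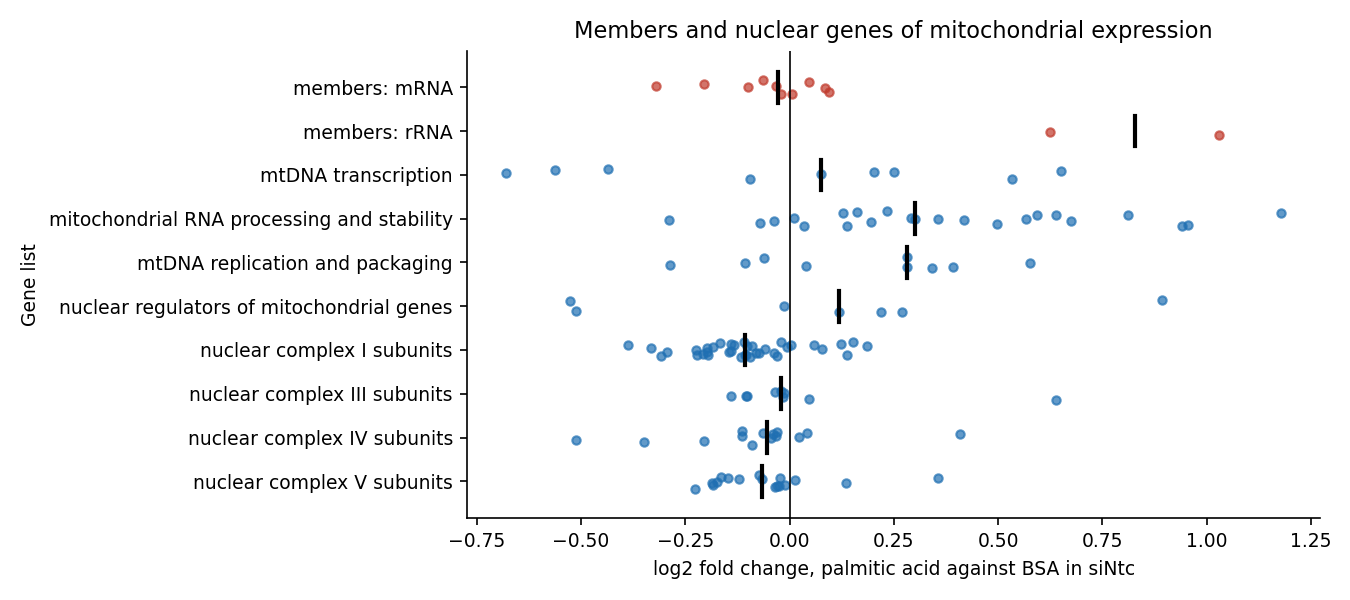
Log2 fold change of PA against BSA in siNtc for the well counted members (red) and for the nuclear gene lists (blue); points are genes and black bars are medians. The 2 rRNAs lie at 0.62 and 1.03, the mitochondrial mRNAs between -0.32 and 0.10, and the RNA processing list has a median of 0.30.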

How the data were processed

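The authors deposited gene counts from featureCounts 2.0.0, with the genome GRCm39 and Ensembl annotation 105 named in the file header, counting pairs strand-specifically at a mapping quality of at least 3 and primary alignments only. The submitters' processing notes name mm10 instead; coordinates here are those of the count table, which matched GRCm39. A table of log2 values, also deposited by the authors, was used only to check the gene set (21772 genes). Gene names came from GENCODE M39. Those reaching 10 counts over the whole table were fitted with edgeR 4.0.16 (quasi-likelihood test, TMM, all 18 libraries in a single fit, Benjamini-Hochberg adjustment), and a gene changed when the adjusted p was below 0.05 and the fold above 1.3. The fit was tested on simulated data for siErk3 against siNtc in BSA, where 199 of 200 changed genes among 21772 were recovered with 5 false calls. Whether that recovery holds near the 1.3-fold limit or for genes with low counts was not tested. Alternatives included DESeq2 1.42.0, other scales and filters, the replicate number as a block and leaving out each library. The chromosome 1 copy was found with blastn 2.17.0 at 90% identity or more over at least 300 bases. The genes named are all protein-coding and rRNA members, tRNA members only where called, and at most 4 called genes per list. Some results that this rule would name are not reported here. The members and lists were chosen with earlier results of these data known. No replicate pair agreed within sampling noise.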

Additional observations from a re-analysis of the deposited data

How the results depend on the processing

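Both rRNAs kept their PA calls in all 3 backgrounds under every alternative except mt-Rnr2 in siMk5 with the 18S covariate, and no named member that was called reversed. Leaving out each library, mt-Rnr1 ranged over log2 fold changes of 0.90 to 1.09, 1.04 to 1.29 and 0.74 to 0.91 in siNtc, siErk3 and siMk5. The count of members changed by PA was 2 in siNtc with at least 10 counts required in every library, where the low tRNA genes drop out. With the adjusted p alone the PA count was 6 in siErk3 and 7 in siMk5. Leaving out each library, the PA counts ranged from 3 to 6 in siNtc, from 2 to 3 in siErk3 and from 2 to 5 in siMk5, with 3 without siNtc BSA replicate 1 and 5 without siMk5 BSA replicate 1. For siErk3 against siMk5 in BSA the count was 1 with the adjusted p alone and 2 with the mitochondrial mRNA total as library size, and it ranged from 0 to 1 when each library was left out, with 1 without siMk5 BSA replicate 3. With at least 1 count in total required, the adjusted p of single members became far smaller at like fold changes, and those p-values are not used. mt-Nd6 gained a PA call in siMk5 with the 18S covariate (-0.42) and in siNtc without any of 3 libraries (-0.46 to -0.42). The causes were not tested.

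When the replicate number was added as a block, the members changed were 5, 3 and 3 for PA in siNtc, siErk3 and siMk5 and 0 in the other comparisons, so the block moved no count. Same-numbered libraries did not deviate together throughout: the correlations of 27 pairs ran from -0.60 to 0.51, and 10 were highest with their own number. By comparison the mean ran from -0.39 (siErk3 against siNtc in PA) to 0.32 (siErk3 against siMk5 in PA), and all 3 libraries matched their own number best in siMk5 against siNtc in BSA. Low counts limit the tRNA genes and the 6 protein-coding genes wholly inside the copied window.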

Other observations

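Other listed nuclear stretches resemble the mitochondrial genome less closely than the chromosome 1 copy. Alignments on a single other chromosome were left out of the list. The next longest alignment listed, on chromosome 2 (GRCm39, 22477300 to 22480546), covers mitochondrial positions 4441 to 7699 at 97.4% identity. It spans part of mt-Nd2 and the whole of mt-Co1 and mt-Co2. mt-Nd2 and mt-Co1 had no less than 18413 and 103914 counts per library, and mt-Co2, which also lies in the chromosome 1 window, had 204 to 405. The part of these stretches in the counts was not tested. An alignment on chromosome 4 covers positions 12488 to 15359 at 93.0% identity, which includes mt-Nd6 and mt-Cytb, at no less than 2309 and 50065 counts.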
